A study of Mus musculus with 30 samples.

Results

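Complexes II to V of the respiratory chain were followed through the nuclear genes that encode their subunits, in mammary glands of 4 mouse genotypes. The members are every gene on the array whose symbol is Sdha, Sdhb, Sdhc or Sdhd (complex II) or starts with Uqcr (complex III), with Cox4, Cox5, Cox6, Cox7 or Cox8 (complex IV) or with Atp5 (complex V). This rule used no measured value and found 45 of the 12147 named genes in the table, of which 4 belong to complex II, 8 to complex III, 17 to complex IV and 16 to complex V. Of these, 44 were among the 11463 genes with enough values to be fitted. Cox6b2, a testis form of a complex IV subunit, had only 19 values and was not fitted. Cox8b, a complex IV subunit of heart, skeletal muscle and brown fat, stood at 6, the upper limit of the deposited scale, on all 30 arrays, so that no difference between groups was measured for it. All counts of members are therefore over 43 genes, with 15 in complex IV. Cox5b-ps, which meets the rule by its symbol, is annotated as a pseudogene, and its probe may not be told apart from Cox5b.

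The respiratory chain lies in the inner mitochondrial membrane. Complex II, which is also the succinate dehydrogenase of the tricarboxylic acid cycle, passes electrons from succinate to ubiquinone, complex III passes them on to cytochrome c, and complex IV hands them to oxygen. Complexes III and IV pump protons, and complex V, the ATP synthase, uses the proton gradient to make ATP. In the mammary gland these genes are read from adipocytes, epithelium, stroma, vessels and blood cells together, and several complex IV subunits have separate forms for heart, skeletal muscle or brown fat.

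The study profiled inguinal mammary glands of 19-week-old 129sv mice with 1 array per gland. The groups are wild type (WT, n = 7), mice without the type I interferon receptor chain IFNAR1 (IFNAR1-/-, n = 8), mice positive for the Her2/Neu oncogene (Her2/Neu+, n = 6) and mice with both changes (Her2/Neu+/IFNAR1-/-, n = 9). The promoter that drives the oncogene, the stage of any tumour and the sex of the mice are not given in the sources used here. Gland RNA labelled with Cy5 was hybridised against Cy3-labelled universal mouse reference RNA, and every level below is the deposited log2 ratio of gland to reference, so levels of different genes cannot be ranked against each other.

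The arrays held 17485 to 20801 values each, with array medians between -0.118 and -0.00308. Adipoq, the adipocyte hormone gene, stood at the limit of 6 on all 30 arrays, and the luminal keratin gene Krt18 was above 0 on 22 arrays. The 7 WT glands had a mean Ifnar1 level of 0.42 ± 0.92 (SD) and the 8 IFNAR1-/- glands one of 0.20 ± 0.89, and neither Ifnar1 nor mouse Erbb2, whose probes may not read the transgene, passed the test in any comparison. These genes therefore do not check the genotype labels. The arrays of Her2/Neu+ sample 114 and of 4 glands high in skeletal muscle RNA (IFNAR1-/- samples 41, 42 and 44 and Her2/Neu+/IFNAR1-/- sample 106) stand apart, and results are given with and without them where they matter. In whole glands, fewer cells of a type and less RNA per cell cannot be told apart.

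The members tended to be lowest where the oncogene was present. In the comparison of all 15 arrays with the oncogene against all 15 without it, averaged over both receptor states, 42 of 43 members lay below 0, with a median log2 difference of -0.44 beside 0.07 over all genes. Below 0 lay 42.6% of all genes. The members Uqcrfs1, Uqcrc2, Cox7a1 and Atp5c1 fell past the threshold, an adjusted p under 0.05 by limma with Benjamini-Hochberg adjustment over all 11463 genes. These are 4 of 43, where 0.864% of all genes fell and 2.57% changed in either direction, and 0 of 43 members rose, where 1.71% of all genes did. An unadjusted p under 0.05 with a lower level was found for 26 members (60.5%), beside 7.55% of all genes. These 4 calls changed with the arrays and the batch terms used. With the slide, inferred from the order of deposition, as a random block 0 of them passed (limma adjusted p = 0.0600 to 0.0690) and 73 of all genes were called in place of 295. Their log2 differences were -1.52, -0.75, -1.34 and -0.86 with that block, in the order named above, and -1.45, -0.73, -1.29 and -0.81 without it. Of the 8 slides 6 held 1 genotype, and neither of the other 2 held both groups of any comparison between a pair of groups, so that slide and genotype can hardly be told apart. Within the first 15 arrays 0 of all genes passed (adjusted p = 0.569 to 0.612 for these 4), and within the last 15 arrays 15 members and 756 of all genes passed.

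The promoter windows of 3 of the 4 called members are shown, because these genes fell together in the averaged comparison. No window was given for Uqcrc2. The windows run from 250 bases before to 50 bases after the annotated start (RefSeq, GRCm38.p6), 5′ to 3′ on the strand of the gene. Uqcrfs1 is at chr13:30545267-30545566 on the minus strand, Cox7a1 at chr7:30183921-30184220 on the plus strand and Atp5c1, from the second of its 2 annotated starts, at chr2:10080383-10080682 on the minus strand. Capitals mark a match to the binding motif of NRF1, a factor known for driving respiratory chain genes.

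Uqcrfs1: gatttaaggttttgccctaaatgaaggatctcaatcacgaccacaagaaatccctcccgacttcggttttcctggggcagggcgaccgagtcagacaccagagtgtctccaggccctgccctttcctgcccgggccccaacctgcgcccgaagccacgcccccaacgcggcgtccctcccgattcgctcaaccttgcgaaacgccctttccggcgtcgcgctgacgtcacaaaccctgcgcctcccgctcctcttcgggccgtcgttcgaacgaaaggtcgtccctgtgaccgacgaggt

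Cox7a1: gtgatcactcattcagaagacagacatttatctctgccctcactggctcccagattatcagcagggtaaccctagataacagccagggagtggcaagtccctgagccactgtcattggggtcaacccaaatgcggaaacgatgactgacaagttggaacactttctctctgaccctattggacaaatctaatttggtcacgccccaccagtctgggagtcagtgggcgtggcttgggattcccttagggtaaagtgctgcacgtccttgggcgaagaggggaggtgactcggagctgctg

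Atp5c1: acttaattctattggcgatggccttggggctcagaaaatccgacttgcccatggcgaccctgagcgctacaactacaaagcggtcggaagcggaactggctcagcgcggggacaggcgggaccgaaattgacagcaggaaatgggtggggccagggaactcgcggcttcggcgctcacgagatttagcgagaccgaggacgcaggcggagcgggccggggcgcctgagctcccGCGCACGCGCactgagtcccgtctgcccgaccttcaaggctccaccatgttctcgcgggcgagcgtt

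Of the 33 fitted members with a window, 7 held the NRF1 motif on either strand (21.2%), beside 5.69% of the 9296 genes on the array with a window. These array genes were not limited to the fitted ones. The ETS motif CCGGAAG, bound by the GABP factor, was in 13 (39.4%, beside 19.8%), and the estrogen-related receptor motif CAAGGTCA was in 3 (9.09%, beside 1.3%). The YY1 motif AANATGGCG was in 3 members, all of complex V (9.09%, beside 6.06%), and the motif of the muscle factor MEF2 was in 0, beside 1.97% of the array genes. The NRF1 motif was in 4 of 14 complex V windows (Atp5c1, Atp5g2, Atp5k and Atp5o), 1 of 11 in complex IV (Cox6a1), 1 of 5 in complex III (Uqcrc1) and 1 of 3 in complex II (Sdhd). NRF1 and MEF2 were searched with their degenerate consensus motifs. Of the 3 called members with a window, Atp5c1 held it, in the window shown but not in that of its other annotated start, while Uqcrfs1 and Cox7a1 held none of the 5 motifs in these windows. A match describes the letters only.

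Complex II has a flavoprotein (Sdha), an iron-sulphur subunit (Sdhb) and a pair of membrane anchors (Sdhc, Sdhd). None of the 4 genes passed the test in any comparison. Sdhb came closest. Its level ran from 0.58 through a median of 1.12 to 1.73 in WT, from 0.01 through 0.96 to 1.87 in IFNAR1-/-, from -0.09 through 0.24 to 1.50 in Her2/Neu+ and from -1.50 through -0.12 to 1.52 in Her2/Neu+/IFNAR1-/- glands. The groups overlapped, and 13 of the 15 arrays with the oncogene were below the median of those without it. Averaged over both receptor states its log2 difference was -0.84 ± 0.25 (SE; limma adjusted p = 0.0638). Its 2 probes gave -1.19 and -0.49.

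The other 3 subunit genes of complex II had another order of groups than Sdhb. Sdhc ran from 0.08 to 1.34 in WT (median 0.77), from -0.28 to 0.92 in IFNAR1-/- (0.45), from -1.52 to 0.53 in Her2/Neu+ (-0.08) and from -0.29 to 1.02 in Her2/Neu+/IFNAR1-/- glands (0.15). Its difference between Her2/Neu+ and WT was -1.03 ± 0.28 (SE; limma adjusted p = 0.141). For Sdhd the same difference was -1.12 and for Sdha -0.83, while Sdhb had -0.60. With the receptor absent, in Her2/Neu+/IFNAR1-/- against IFNAR1-/- glands, the difference was -1.08 for Sdhb but -0.11 for Sdhc, 0.11 for Sdha and 0.35 for Sdhd, none past the threshold. The 2 probes of Sdhb gave -1.82 and -0.34 in that comparison, and -0.62 and 0.45 in IFNAR1-/- against WT. The order of groups for Sdhb is therefore that of a mean of probes that differ in size and, in the latter comparison, in sign.

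Complex III, the cytochrome bc1 complex, held 2 of the 4 called members. Uqcrfs1, the Rieske iron-sulphur subunit that takes electrons from ubiquinol, ran from 0.11 to 2.22 in WT glands (median 0.98) and from -0.29 to 1.20 in IFNAR1-/- glands (0.53). In Her2/Neu+ glands it ran from -4.74 to 0.74 (-0.53), and in Her2/Neu+/IFNAR1-/- glands from -1.08 to 0.61 (-0.18). Of the 15 arrays with the oncogene, 14 were below the median of those without it, and the ranges overlapped. The log2 difference was -1.45 ± 0.35 (SE), 2.74-fold lower (limma adjusted p = 0.0256). Sample 114 of the Her2/Neu+ group gave the -4.74, and the gene still passed without it.

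Uqcrc2, a core subunit on the matrix side, is read by 10 probes, all of which were lower with the oncogene, by log2 differences from -1.23 to -0.39. Their mean ran from 0.65 to 1.87 in WT (median 1.17), from 0.21 to 1.28 in IFNAR1-/- (0.68), from -0.74 to 1.18 in Her2/Neu+ (0.11) and from -0.16 to 1.28 in Her2/Neu+/IFNAR1-/- glands (0.27). In each oncogene group 1 array, sample 115 or sample 103, was far above the rest, and 13 of 15 arrays lay below the median of those without the oncogene. The difference was -0.73 ± 0.18 (SE; limma adjusted p = 0.0256). The partner core subunit gene Uqcrc1 had -0.85 ± 0.27 (SE; adjusted p = 0.0855). Its 6 Her2/Neu+ arrays ran from -2.96 to -0.11, and its medians were 0.36 in WT, 0.11 in IFNAR1-/-, -0.54 in Her2/Neu+ and -0.01 in Her2/Neu+/IFNAR1-/- glands.

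The small subunits of complex III were lower too, without passing the test. Uqcrq had a difference of -0.88, Uqcr10 had -0.56, Uqcrh, the acidic hinge subunit, had -0.42, Uqcr11 had -0.33 and Uqcrb had -0.32. Each of the 8 complex III genes lay below 0 in Her2/Neu+ against WT, in IFNAR1-/- against WT and in the averaged comparison.

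Complex IV, cytochrome c oxidase, held 1 called member. Cox7a1, the form of subunit 7a found in heart, skeletal muscle and brown fat, ran from 2.31 to 4.44 in WT glands (median 3.35) and from 0.54 to 3.54 in IFNAR1-/- glands (1.79). It ran from 0.78 to 2.76 in Her2/Neu+ glands (1.53) and from 0.23 to 2.61 in Her2/Neu+/IFNAR1-/- glands (1.53). WT was the high group, and all 15 arrays with the oncogene lay below the median of the 15 without it, although the ranges overlapped. The averaged difference was -1.29 ± 0.30 (SE), 2.44-fold lower (limma adjusted p = 0.0236). Against WT alone, the differences were -1.88 ± 0.45 in Her2/Neu+ (adjusted p = 0.0868) and -1.55 ± 0.42 in IFNAR1-/- glands (adjusted p = 0.453).

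The widespread partner Cox7a2 showed a smaller difference. It ran from 0.16 to 1.84 in WT (median 0.65), from -0.54 to 1.16 in IFNAR1-/- (0.25), from -0.83 to 1.23 in Her2/Neu+ (0.19) and from -0.17 to 1.53 in Her2/Neu+/IFNAR1-/- glands (0.26), with an averaged difference of -0.31 ± 0.22 (SE; adjusted p = 0.458). The difference between the changes of both forms was not tested.

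**Figure D1:**
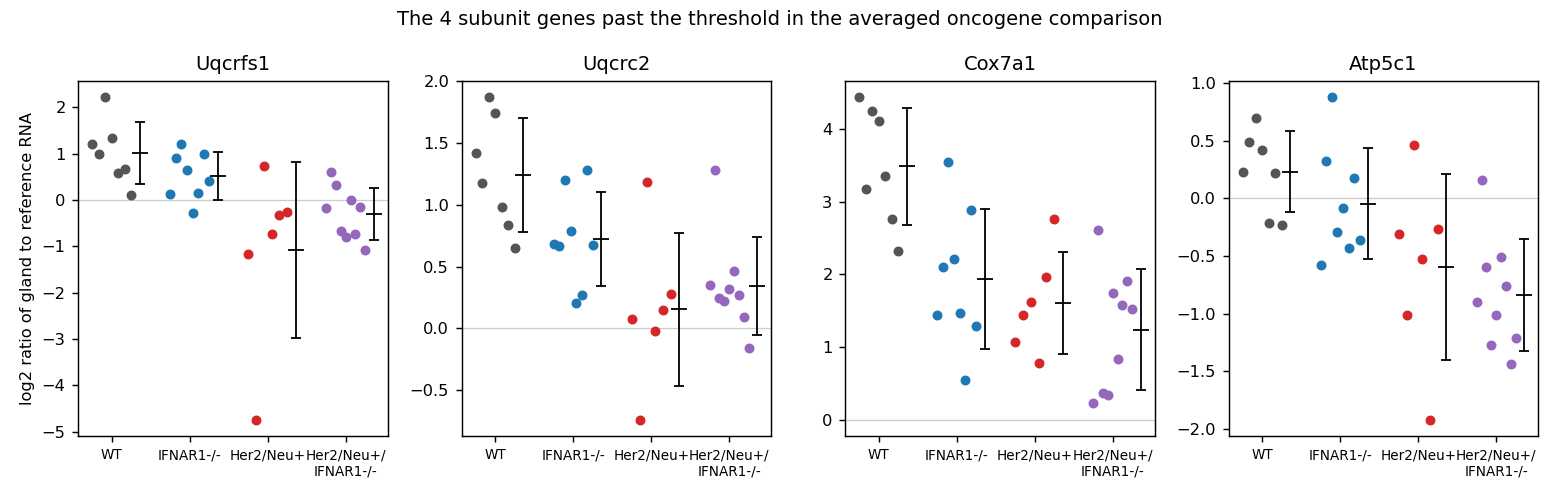
Log2 ratio of gland to reference RNA (vertical axis, 1 scale per panel) for the 4 subunit genes past the threshold in the averaged oncogene comparison, with 1 point per array and the mean ± SD of each group at its right. The oncogene groups sit lower in each panel but overlap with the groups without it, and the lowest Uqcrfs1 point, -4.74, is Her2/Neu+ sample 114.

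Cox6c, a small complex IV subunit, had the widest spread among the Her2/Neu+ glands. It ran from -0.13 to 1.63 in WT (median 0.69), from -0.54 to 0.73 in IFNAR1-/- (-0.05), from -4.59 to 1.25 in Her2/Neu+ (-0.54) and from -0.94 to 1.09 in Her2/Neu+/IFNAR1-/- glands (-0.23). The lowest value came from sample 114 and the highest of the oncogene groups from samples 115 and 103. Its difference was -1.96 ± 0.55 (SE) in Her2/Neu+ against WT (limma adjusted p = 0.144) and -1.07 in the averaged comparison (adjusted p = 0.107).

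The common forms of the subunits that also have tissue forms were all lower with the oncogene, below the threshold. Cox6a1 ran from 0.65 to 2.03 in WT (median 0.93), from -0.46 to 1.89 in IFNAR1-/- (0.61), from -1.77 to 1.47 in Her2/Neu+ (0.09) and from -0.10 to 1.63 in Her2/Neu+/IFNAR1-/- glands (0.07), with an averaged difference of -0.85 (limma adjusted p = 0.0871). Cox6b1 had -0.75 (adjusted p = 0.0853), with 13 of 15 oncogene arrays below the median of the others. Cox8a had -0.57 (adjusted p = 0.223) and Cox4i1, which binds ATP as a regulator of the enzyme, had -0.41 (adjusted p = 0.191). Cox8a ran from 0.43 to 1.71 in WT, from -0.09 to 1.73 in IFNAR1-/-, from -1.86 to 1.37 in Her2/Neu+ and from 0.07 to 1.74 in Her2/Neu+/IFNAR1-/- glands. Cox4i2, the form known from lung and from low oxygen, gave little information, because 71.4% of its 28 values were repeated digit for digit elsewhere on the same array.

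Cox6a2, the heart and skeletal muscle form of subunit 6a, was the exception to the direction. Its averaged oncogene difference was 0.13 ± 0.76 (SE; limma adjusted p = 0.946). The level was 1.18, 2.35 and 1.71 in IFNAR1-/- samples 41, 42 and 44 and 0.29 in Her2/Neu+/IFNAR1-/- sample 106. On the other 26 arrays it ran from -6 to -1.69, with 3 arrays at the lower limit of the scale. A list of 18 skeletal muscle markers, of which 8 were measured, was high on those same 4 arrays: its mean, with each gene centred on all arrays, was 3.40 to 4.31 there and -1.40 to 0.85 elsewhere.

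Acta1, the skeletal actin gene, ran from -0.35 to 5.72 in IFNAR1-/- glands and from -3.27 to -0.31 in WT glands. Cox7a1 was not set apart on these arrays in that way. It was 1.74 to 3.54 on these 4 arrays (median 2.15) and 0.23 to 4.44 on the other 26 (1.60). Within the IFNAR1-/- group it was 2.10, 3.54 and 2.20 on the 3 arrays high in muscle RNA and ran from 0.54 to 2.89 on the other 5 (median 1.44), so the ranges overlapped with the higher median on the former. Leaving out the 4 arrays gave 0 called members (limma adjusted p = 0.0546 to 0.0783) with 292 of all genes called, and the log2 difference of Cox7a1 became -1.12. The median over the 43 members was -0.39 without these arrays and -0.44 with them.

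**Figure D2:**
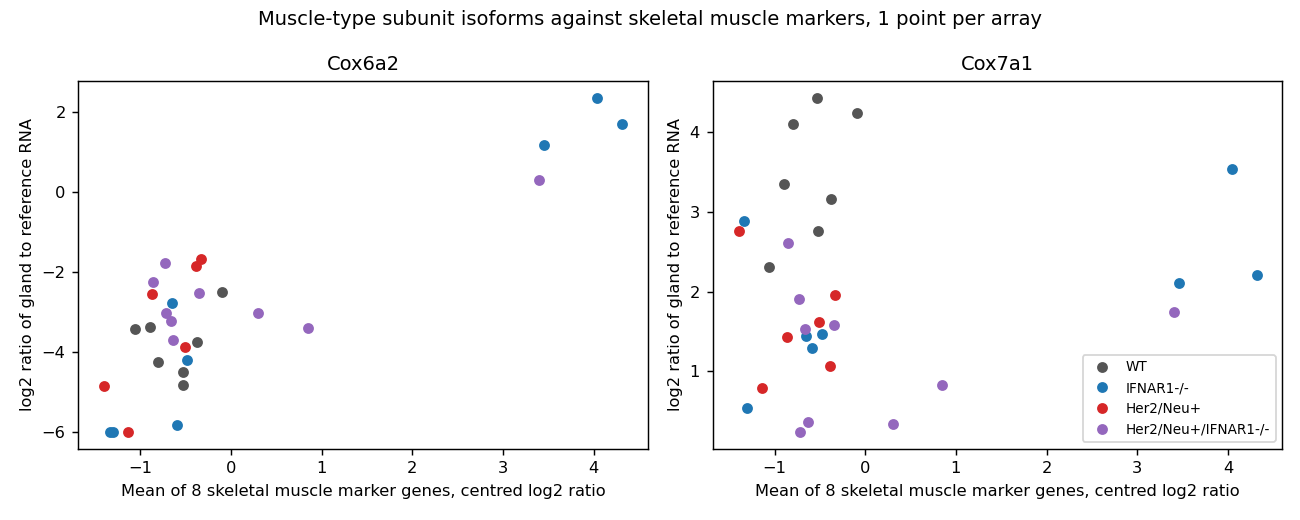
Log2 ratio of gland to reference RNA of the complex IV isoform genes Cox6a2 and Cox7a1 on each array (vertical axis) against the mean of the 8 measured skeletal muscle markers, each centred on all arrays (horizontal axis, log2). Cox6a2 is above 0 only on the 4 arrays with a marker mean of 3.40 or more, while Cox7a1 spreads from 0.23 to 4.44, highest in WT, and within the IFNAR1-/- group has a median of 2.20 on the 3 arrays high in markers and of 1.44 on the other 5.

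Brown fat, where Cox7a1 and Cox8b are also known from, could hardly be read: 3 of 14 brown and beige markers were measured, and Cidea was at or near the limit of 6 on every array. Fabp3, a fatty acid binding protein of heart, skeletal muscle and brown fat, could be read and was highest in WT, as Cox7a1 was. Its group means were 1.42 ± 1.27 (SD) in WT, -1.75 ± 1.95 in IFNAR1-/-, -0.92 ± 1.57 in Her2/Neu+ and -1.41 ± 0.80 in Her2/Neu+/IFNAR1-/- glands. Against WT it differed by -3.17 ± 0.71 in IFNAR1-/- (SE; limma adjusted p = 0.208) and by -2.33 ± 0.76 in Her2/Neu+ glands (adjusted p = 0.187). Ppargc1a, the remaining measured marker of this list, had another order and was higher in the oncogene groups. Its means were 0.57 ± 1.01 (SD) in WT, 0.10 ± 0.53 in IFNAR1-/-, 1.54 ± 1.18 in Her2/Neu+ and 1.98 ± 2.12 in Her2/Neu+/IFNAR1-/- glands. The part of brown fat in the differences of Cox7a1 was not tested. Of 14 white adipocyte markers 12 were measured and 6 of these were at 5.9 or more on at least 50% of the arrays, so that a loss of adipocyte RNA would be compressed at the limit of the scale. The part of adipocyte content in the differences was not tested.

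Complex V, the ATP synthase, held the called member Atp5c1, which encodes the gamma subunit, the central shaft that turns inside the catalytic head. It ran from -0.23 to 0.70 in WT (median 0.23), from -0.58 to 0.88 in IFNAR1-/- (-0.19), from -1.92 to 0.46 in Her2/Neu+ (-0.42) and from -1.44 to 0.16 in Her2/Neu+/IFNAR1-/- glands (-0.90). Of 15 arrays with the oncogene 14 lay below the median of those without it. The difference was -0.81 ± 0.20 (SE; limma adjusted p = 0.0303), with -1.05 and -0.51 for its 2 probes. The mean of both probes differed by a similar amount with the receptor present (-0.83) and absent (-0.79), and the interaction of both factors was 0.03 ± 0.40 (SE; adjusted p = 0.985). The single probes gave -0.92 and -0.74 with the receptor present, and -1.17 and -0.28 with it absent. In Her2/Neu+/IFNAR1-/- against Her2/Neu+ glands they gave -0.67 and 0.32. The interaction is therefore that of a mean of probes that differ in sign in the latter comparison.

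Of the catalytic head, Atp5b, the beta subunit, had an averaged difference of -0.78 ± 0.24 (SE; limma adjusted p = 0.0831) and Atp5a1, the alpha subunit, -0.31. The delta subunit gene Atp5d had -0.43 and the epsilon subunit gene Atp5e -0.16. Of the stalk and membrane parts, Atp5o had -0.35, Atp5pb -0.44 and Atp5h -0.28, and the ring subunit genes Atp5g3 and Atp5g2 had -0.42 and -0.13. Atp5j2 ran from 0.12 to 1.43 in WT (median 0.70), from -0.50 to 0.75 in IFNAR1-/- (0.15), from -0.53 to 0.49 in Her2/Neu+ (-0.10) and from -0.24 to 0.56 in Her2/Neu+/IFNAR1-/- glands (0.02), a difference from WT of -0.80 ± 0.22 (SE; adjusted p = 0.144) in Her2/Neu+. Atp5j was the only complex V gene above 0 in Her2/Neu+ against WT, at 0.08.

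**Figure D3:**
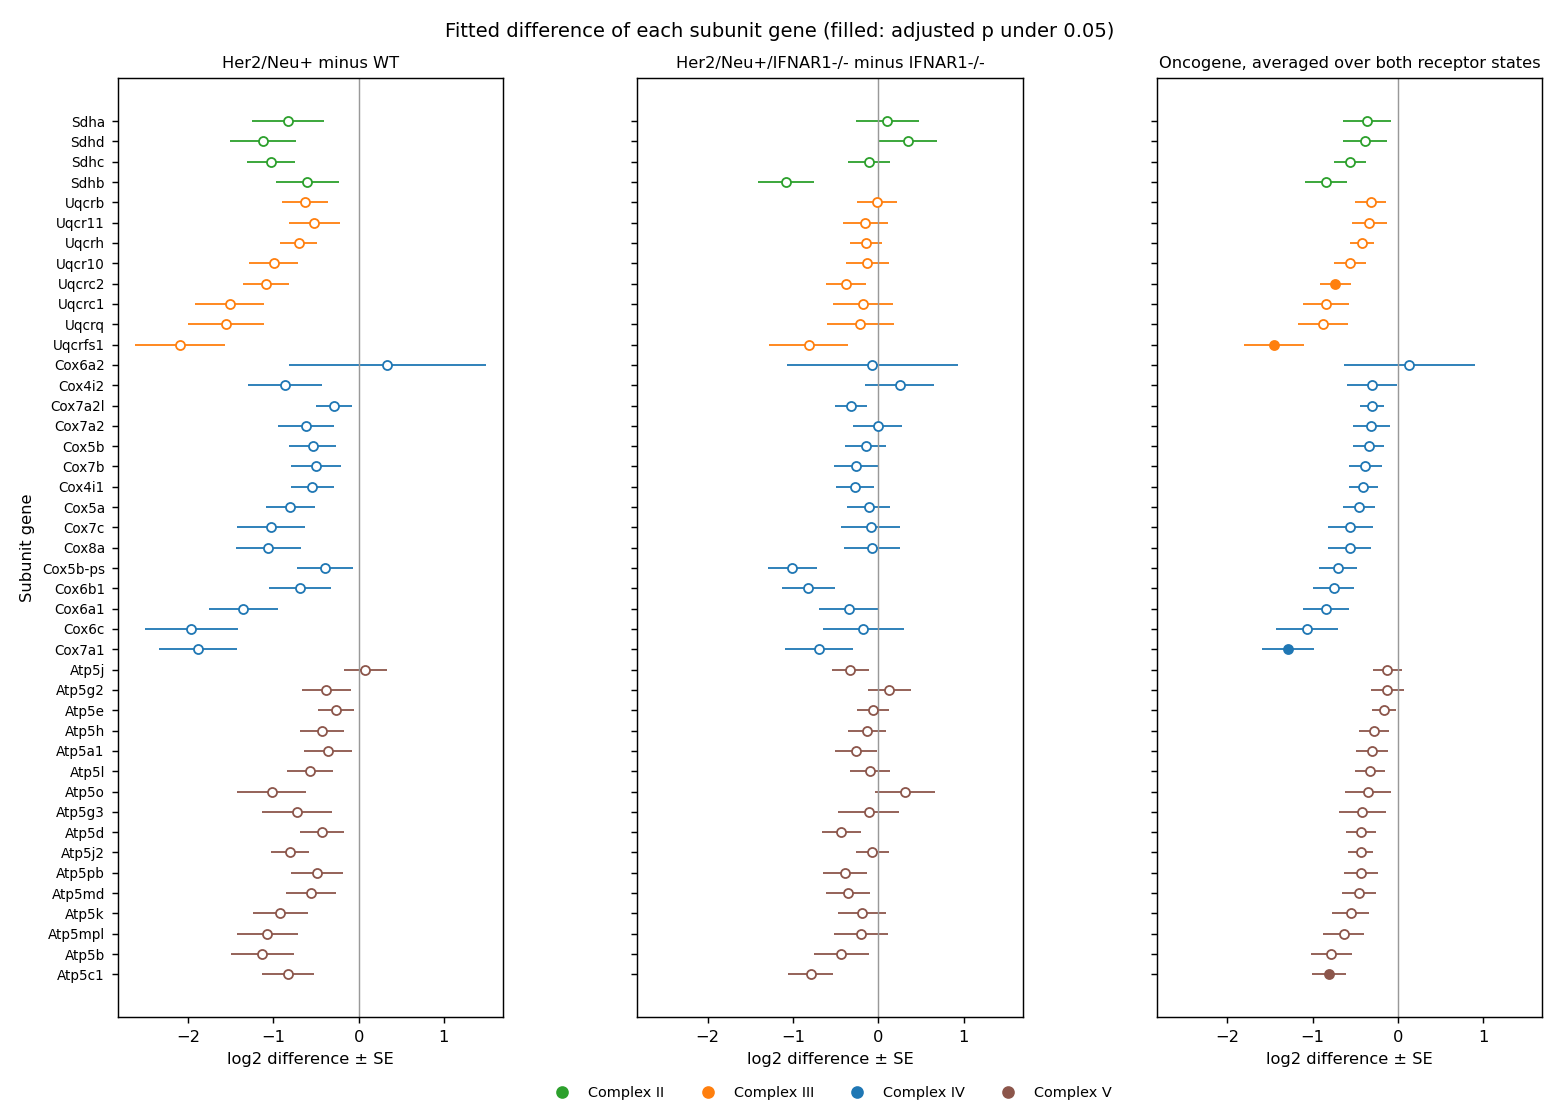
Fitted log2 difference ± SE (horizontal axis) of the 43 subunit genes, coloured by complex, in Her2/Neu+ against WT, in Her2/Neu+/IFNAR1-/- against IFNAR1-/- and averaged over both receptor states, with filled points past the threshold. Most points lie left of 0 in each panel, further so in the first, and the 4 filled points are Uqcrc2, Uqcrfs1, Cox7a1 and Atp5c1.

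In the separate comparisons no member passed the threshold. Her2/Neu+ against WT had 0 of 43 members past the limma threshold (0.131% of all genes passed) and 23 with an unadjusted p under 0.05 and a lower level (53.5%, beside 6.69% of all genes). Their median was -0.72, beside -0.02 over all genes, and 41 of 43 lay below 0, beside 51.5% of all genes. The largest differences there were those of Uqcrfs1 (-2.09), Cox6c (-1.96), Cox7a1 (-1.88), Uqcrq (-1.55) and Uqcrc1 (-1.51). Leaving out Her2/Neu+ sample 115, the highest array of that group in each complex, gave 10 called members, and the last 15 arrays alone, with samples 114 and 119 as the only Her2/Neu+ arrays, gave 17. The counts over all genes in these fits are not given here, so neither count is a result about the members alone.

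Loss of the receptor without the oncogene was also accompanied by lower levels of most members, none past the threshold. IFNAR1-/- against WT had 0 of 43 members past the limma threshold (0.0262% of all genes passed), 11 with an unadjusted p under 0.05 and a lower level (25.6%, beside 3.99% of all genes) and a median of -0.45, beside -0.08. Below 0 lay 40 of 43 members and 58.1% of all genes, and Cox7a1 (-1.55), Sdhd (-0.87), Cox4i2 (-0.86) and Cox6c (-0.77) were the lowest. Most values of Cox4i2 were repeated ones, its medians were -0.01 in WT and -0.03 in IFNAR1-/- glands, and IFNAR1-/- sample 47 stood at -3.04. The comparison of IFNAR1-/- with WT shares the WT arrays with the former one, so the likeness of their directions is no independent evidence.

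With the receptor absent in both groups, the differences of the members were smaller in size. Her2/Neu+/IFNAR1-/- against IFNAR1-/- glands had 0 of 43 members past the limma threshold (1.31% of all genes passed), 4 lower at an unadjusted p under 0.05 (9.30%, beside 4.96%) and a median of -0.17, beside 0.15 over all genes. Sdhb (-1.08; adjusted p = 0.0827) and Cox5b-ps (-1.01; adjusted p = 0.0697) were lowest. Her2/Neu+/IFNAR1-/- against Her2/Neu+ glands had 0 of 43 past the threshold (0.0785% of all genes passed), with 1 member lower (4.18% of all genes) and 1 higher (6.99% of all genes) at an unadjusted p under 0.05, and a median of 0.12, beside 0.11. Without Her2/Neu+ sample 114 that median was -0.06. Uqcrc1 was highest at 1.11 (adjusted p = 0.285).

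The interaction, the test of whether the oncogene difference depends on the receptor, had 0 of 43 members past the limma threshold (0.0174% of all genes passed) and 8 higher at an unadjusted p under 0.05, beside 6.86% of all genes. Its median was 0.61, beside 0.18. A different size of the oncogene's difference with and without the receptor was therefore not shown for any member. Receptor loss averaged over both oncogene states had 0 of 43 past the threshold (0.0698% of all genes passed), 4 lower at an unadjusted p under 0.05 (9.30%, beside 4%) and a median of -0.17, beside 0.02.

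The complexes were compared by the median of their members and by their mean on each array. In Her2/Neu+ against WT the median log2 difference was -0.93 for complex II, -1.04 for complex III, -0.69 for complex IV and -0.56 for complex V. An unadjusted p under 0.05 with a lower level was found for 2 of 4, 7 of 8, 7 of 15 and 7 of 16 genes in the same order. In the averaged comparison the medians were -0.48, -0.65, -0.46 and -0.42, with 0, 2, 1 and 1 members called. Complex III had the lowest median in both. Within the first 15 arrays alone complex III had -0.32 and complex II had -0.44, so the order of the complexes changed there.

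For each array the members of a complex were centred on their mean over all arrays and averaged, over 41 genes in all, without Cox8b, Cox6a2 and Cox4i2, which were left out after their values had been seen. For complex III, WT glands had a mean of 0.58 ± 0.43 (SD over 7 arrays) and IFNAR1-/- glands one of 0.09 ± 0.37 (8 arrays). Her2/Neu+ glands had -0.56 ± 0.85 (6 arrays), and Her2/Neu+/IFNAR1-/- glands -0.16 ± 0.39 (9 arrays). Complex V had 0.40 ± 0.41, 0.02 ± 0.33, -0.21 ± 0.57 and -0.19 ± 0.34 in the same order. Complexes II and IV had means of 0.52 and 0.55 in WT and of -0.38 and -0.35 in Her2/Neu+ glands. Over the 4 complexes the SD within a group ran from 0.33 to 0.85, so the spread between arrays of 1 genotype was of the size of the group differences.

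The difference of complex III minus complex V on the same array had a mean of 0.17 ± 0.08 (SD) over the 7 WT arrays and 0.07 ± 0.18 over the 8 IFNAR1-/- arrays. It was -0.35 ± 0.42 over the 6 Her2/Neu+ arrays and 0.03 ± 0.10 over the 9 with both changes. It ran from 0.08 to 0.30 in WT and from -1.17 to 0.00074 in Her2/Neu+ glands, which do not overlap. Complexes III and V have the lowest and the highest median in this same comparison (-1.04 and -0.56), and no other pair of complexes was scored. The separation of both groups is therefore no independent evidence. No test was made of this score, since the members were chosen with earlier results known. The lowest value, -1.17, came from sample 114, and the median of the Her2/Neu+ group was -0.23.

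**Figure D4:**
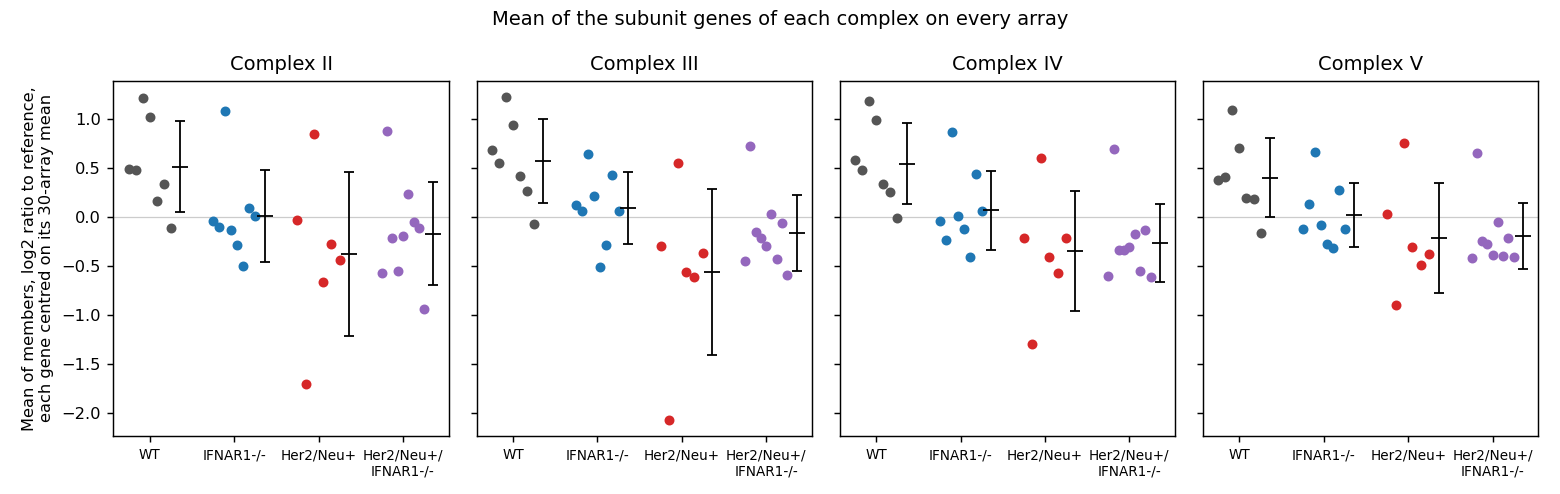
Mean of the members of each complex on each array, centred on all 30 arrays (vertical axis, log2), by genotype group, with the mean ± SD of each group. WT samples lie mostly above 0, and Her2/Neu+ sample 114 is the lowest point in each panel, at -2.07 in complex III and -0.90 in complex V.

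Single arrays stood out in all complexes at once. WT sample 55, IFNAR1-/- sample 42, Her2/Neu+ sample 115 and Her2/Neu+/IFNAR1-/- sample 103 were each the highest of their group in complexes II, III, IV and V, and WT sample 60 and Her2/Neu+ sample 114 the lowest. Epithelial markers were low on some of these arrays, with high or with low members. The means of the luminal and basal markers were -0.68 and -0.62 on WT sample 55 and -1.08 and -2.11 on Her2/Neu+/IFNAR1-/- sample 103, each the lowest of its group, and the luminal mean was -1.18 on IFNAR1-/- sample 42. On Her2/Neu+ sample 114, the lowest of its group in the members, the luminal and basal means were low too, at -2.29 and -1.76. IFNAR1-/- sample 41 had a luminal mean of -1.32 with a mean of all members of -0.02. The part of epithelial content in the member levels was not tested. Among the first 15 deposited arrays the mean of all members was 0.52 in block 3 and 0.59 in block 4 of the raw data files, against -0.25 in block 1 and -0.15 in block 2. Among the last 15 it was -0.29, -0.09, -0.03 and -0.19 for blocks 1 to 4. Block 3 or 4 held each of the 4 highest arrays. With the block number as a covariate the same 4 members passed in the averaged comparison.

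On sample 114 other lists were also at an end of their range. Its mean of 10 measured luminal markers was -2.29 and that of 12 white adipocyte markers -0.59, each the lowest of all arrays, and that of 4 B cell markers was 2.73, the highest. The part of cell content in its low member values was not tested. Without this array all 4 called members still passed.

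Neighbouring parts of the mitochondrial pathways were read from lists of other genes. The list of 46 genes whose symbols start with Nduf holds 38 genes named for complex I and 8 assembly factors (Ndufaf1 to Ndufaf8). The 38 were taken by symbol alone, and their place in the complex was not checked gene by gene. Of the 38, 6 fell and 0 rose in the averaged oncogene comparison, with a median of -0.51, where 0.864% of all genes fell and 1.71% rose. Of the 8, 0 passed, with a median of -0.01, and the median of all 46 was -0.44. Ndufb8, an accessory subunit, had -0.98 ± 0.22 (SE; limma adjusted p = 0.0179), and Ndufa1, Ndufa7, Ndufa10, Ndufc2 and Ndufs7 fell as well. Of 16 tricarboxylic acid cycle genes 4 fell and 0 rose, with a median of -0.51: Idh2, the mitochondrial NADP-linked isocitrate dehydrogenase, had -1.32 ± 0.34 (SE; adjusted p = 0.0372), and Idh3g, Sucla2 and Suclg1 were the others. Of 14 genes for electron carriers and exchange across the inner and outer membranes 1 fell, Etfb, a subunit of the electron transfer flavoprotein, with -0.84 ± 0.22 (SE; adjusted p = 0.0413), and the median was -0.47.

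The median of the assembly factors of complexes II to V was nearer to 0. Of 22 measured genes 0 passed the limma test in either direction, and their median was -0.05, beside 0.07 over all genes. Atpaf2, which helps to build the head of complex V, was the nearest, with -0.66 ± 0.21 (SE; adjusted p = 0.0846). Of 13 regulators of mitochondrial biogenesis 0 passed, with a median of 0.22, and Ppargc1a, the coactivator PGC-1 alpha, had 1.43 ± 0.49 (SE; adjusted p = 0.109).

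Markers of other cell types passed the threshold as single genes, while some of the lists lay mostly on 1 side of 0. Epcam, an epithelial surface gene, rose by 2.10 ± 0.55 (SE; limma adjusted p = 0.0388) as 1 of 10 measured luminal markers. Of these 10, 3 lay below 0, among them Krt19 (-1.42; adjusted p = 0.0759) and Foxa1 (-1.52; adjusted p = 0.16), and the median was 0.20. Krt14 and Acta2 fell among 7 basal and myoepithelial markers, of which 6 lay below 0 (median -0.75), with Trp63 above it at 0.59. Csf1r fell among 8 macrophage markers, of which 4 lay below 0 (median 0.03), while Cd14 had 1.29 (adjusted p = 0.0765). Of 12 white adipocyte markers 0 passed, 9 lay below 0 and the median was -0.13, with 6 of them held at the limit. The others, Lep, Cd36, Pnpla2, Retn, Lpl and Pparg, all lay below 0, from -0.74 (Lep) to -0.05 (Pparg). Of 8 muscle markers 0 passed, 7 lay below 0 and the median was -0.51, with Myl1 nearest to the threshold (-1.92; limma adjusted p = 0.087). Of 3 brown and beige fat, 4 B cell and 6 T and NK cell markers 0 passed, with medians of -0.0038, 0.71 and 0.08. The part of these cell types in the members' differences was not tested.

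**Figure D5:**
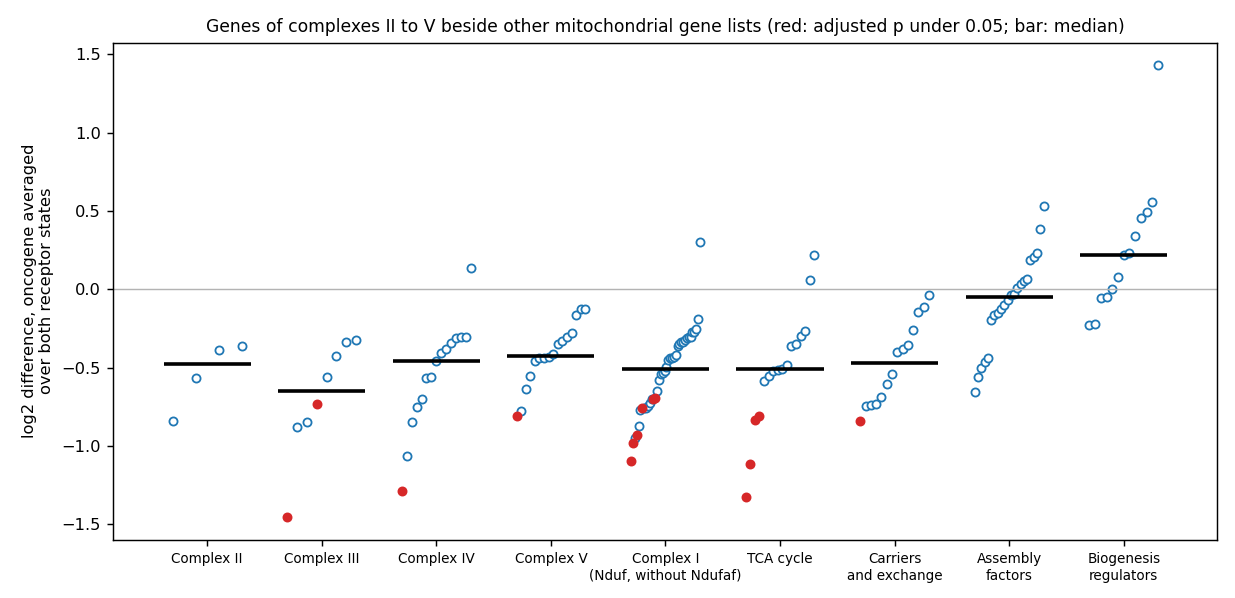
Log2 differences of single genes in the averaged oncogene comparison (vertical axis) for each respiratory complex and other mitochondrial gene lists (along the horizontal axis), with a bar at each median, red points past the threshold and Cox8b and the Ndufaf genes left out. The medians of complexes I to V lie between -0.65 and -0.42, those of the assembly factors and the biogenesis regulators at -0.05 and 0.22.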

How the data were processed

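The deposited values are the log2 ratio of gland (Cy5) to reference (Cy3), with 1 column per sample. Per the labels' protocols, gland RNA was labelled Cy5. The base was inferred from the limit of ±6 and the direction from the dyes. Background correction and normalization are not given in the sources used here. Probes with 1 gene symbol (17376 of 20896) and values on 50% or more of each group's arrays were averaged per gene, which gave 11463 genes. Levels are given as lowest, median and highest per group. All 30 arrays entered 1 limma fit (version 3.58.1, R 4.3.3; lmFit and eBayes) with a mean per group and 7 contrasts, and p-values were adjusted by Benjamini-Hochberg over all genes, with a threshold of 0.05. No statement says whether glands came from separate mice, so the spread behind the p-values is that between these arrays and may be technical. The number of arrays limits the precision. Slides (8) and the 2 sets of 15 arrays were inferred from runs of block numbers in deposition order. Members named with full values are those past the threshold, the 2 with the smallest p of each complex and the tissue isoforms. The members and all lists were chosen with earlier results of these data known. The fit was tested on simulated data. Alternatives changed the normalization, the probe filter, the averaging of probes, array weights, batch terms, repeated values and the arrays used. The arrays to leave out for muscle RNA (4) and the last slide were chosen after seeing the data.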

Additional observations from a re-analysis of the deposited data

Results flagged for a closer look

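In groups of 6 to 9 arrays, 14 of the 76 combinations of a group with a named member or a complex mean held an array that stood apart from the rest by Dixon's test at the 95% level, where chance alone gives about 1 in 20. Most came from 1 gland, Her2/Neu+/IFNAR1-/- sample 103, which was high for Cox8a (1.74), Cox6a1 (1.63), Cox7a2 (1.53), Uqcrc2 (1.28), Cox6c (1.09) and Atp5j2 (0.557). It was also high for the means of complex III (0.725), complex IV (0.698) and complex V (0.656), each centred on all arrays. Without this gland 8 members passed the threshold in the averaged oncogene comparison, in place of 4. The count over all genes in that fit is not given here, so the rise is no result about the members alone.

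IFNAR1-/- sample 42 stood apart in the mean of complex II (1.09, with the next array at 0.091), and it is among the glands high in skeletal muscle markers. Cox6a2 stood apart at 0.29 in Her2/Neu+/IFNAR1-/- sample 106, the gland of that group with the highest muscle marker mean (3.40). Uqcrfs1 stood apart at -4.74 in Her2/Neu+ sample 114, with the next array at -1.16. Cox4i2 stood apart at -3.04 in IFNAR1-/- sample 47 and at -0.349 in Her2/Neu+/IFNAR1-/- sample 102, in a gene for which 71.4% of the values were repeated ones.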

How the results depend on the processing

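In 17 alternative settings and 30 that left out 1 array, 0 of 885 values of named members changed sign. These values belong to 19 differences of the called members and of the 2 members of each complex with the smallest p. The other tissue isoforms are not among them. Since these members were picked by their p in these same data, their steady sign is no independent evidence. The sign of the members' median turned in 4 of 326 values: for Her2/Neu+/IFNAR1-/- against Her2/Neu+ it was -0.02 with array weights, -0.15 without the last slide and -0.06 without Her2/Neu+ sample 114, and for averaged receptor loss 0.02 in the last set alone. For the averaged oncogene comparison the count of 4 members became 2 with 1 probe per gene, 0 with the slide as a random block, 7 with the array set as a fixed block, 0 in the first and 15 in the last set alone, 0 without the 3 or the 4 arrays with muscle RNA, and 1 (Uqcrfs1) without the last slide. Leaving out 1 array gave 3 to 12: 8 without Her2/Neu+/IFNAR1-/- sample 103, 12 without Her2/Neu+ sample 115, and 3 without Her2/Neu+ sample 119 or WT sample 56, where Atp5c1 was lost (adjusted p = 0.0550 and 0.0510). Over 46 alternatives the adjusted p ran from 0.00756 to 0.569 for Uqcrfs1, from 0.00604 to 0.612 for Uqcrc2, from 0.00879 to 0.586 for Cox7a1 and from 0.00885 to 0.589 for Atp5c1. For Her2/Neu+ against WT, the count of 0 became 1 (Cox7a1) with quantile normalization, 2 (Cox7a1, Uqcrc2) with repeated values missing and 17 in the last set alone, and 0 to 10 without 1 array, the 10 without Her2/Neu+ sample 115. For Her2/Neu+/IFNAR1-/- against IFNAR1-/- it became 1 with 1 probe per gene (Sdhb), array weights or repeated values missing (both Cox5b-ps), and 0 to 2 without 1 array, the 2 without Her2/Neu+/IFNAR1-/- sample 103. For IFNAR1-/- against WT it became 1 (Cox7a1) with array weights. In the last set alone it became 11 for Her2/Neu+/IFNAR1-/- against Her2/Neu+ and 9 for the interaction, in 2 Her2/Neu+ arrays. The cause of these changes was not tested. The number of all genes called changed between settings too, as given above for some of them, so these counts are no result about the members alone. Over all alternatives the median of the 43 members ran from -1.05 to -0.49 for Her2/Neu+ against WT, from -0.15 to 0.26 for Her2/Neu+/IFNAR1-/- against Her2/Neu+, from -0.28 to -0.04 for Her2/Neu+/IFNAR1-/- against IFNAR1-/-, from -0.56 to -0.33 for IFNAR1-/- against WT, from 0.29 to 0.81 for the interaction, from -0.66 to -0.33 for the oncogene and from -0.29 to 0.02 for receptor loss, both averaged. A fit of only the groups compared gives no value for the last 3. No paired analysis was possible because the groups share no sample numbers. No intensities are in the table, so signal over background is unknown.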
